A study of Glycine max with 48 samples.

Results

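Lipoxygenase gene expression was followed in 4 organs of the soybean flower (Glycine max, cultivar Magellan) under heat, water deficit and both stresses together. The 10 genes described here were taken by identifier from 57147. They comprise the seed genes Lox2 (GLYMA_13G347500), Lox1 (GLYMA_13G347600) and Lox3 (GLYMA_15G026300), a neighbour of Lox1 on chromosome 13 (GLYMA_13G347700), a pair of vegetative copies on chromosome 7 (GLYMA_07G034800 and GLYMA_07G034900) and a vegetative cluster of 4 on chromosome 8 (GLYMA_08G189200 to GLYMA_08G189500). The tables hold identifiers without gene names, so the names Lox1, Lox2 and Lox3 are those used when the genes were chosen, and the other 7 are given by identifier.

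Lipoxygenases add oxygen to polyunsaturated fatty acids such as linoleic and linolenic acid. The hydroperoxides they form are the starting point of oxylipins, among them jasmonates, the hormones of wounding, stress and flower development, and volatile aldehydes. In soybean, Lox1, Lox2 and Lox3 are best known as abundant proteins of the seed, where their products cause the beany flavour of soy foods. Vegetative lipoxygenases accumulate in leaves, where some of them behave like storage proteins.

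The sepal, anther, ovary and stigma were each sampled under 4 treatments with 3 libraries a group, 48 libraries in all, and each library came from 10 to 15 pooled flowers of 8 to 10 plants. Day and night temperatures were 28 and 24 °C for control plants, whose water supply was 100% of what they could transpire. Water-deficit plants had 30% at the same temperatures. Heated plants were at 38 °C in the day and 28 °C at night with a supply of 100%, and combined-stress plants met these temperatures with 30%. Treatments began at the first open flower, after 16 to 18 days of growth, and were spread over 4 growth chambers. If each treatment had its own chamber, chamber and treatment cannot be told apart. Expression is given as FPKM, a read fragment count scaled to gene length and to the number of mapped fragments, with 1 deposited table per organ, so levels in different organs are set side by side without a test.

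Sequencing depth is known in relative terms alone, with the deepest library of an organ at 1.30 to 1.59 times its shallowest. Between 21198 and 31827 genes reached 1 FPKM in a library. Control sepal replicate 3 stood apart from its group, with 413 genes at 5 FPKM or more and at least 4-fold above both other replicates, against 45 to 177 in the other 47 libraries. Genes expressed at least 8-fold more in ovary and stigma than in sepal and anther, 277 pistil-enriched genes with the lipoxygenases left out, held 0.485% of its summed FPKM, against 0.0993% and 0.264% in the other control sepals. A list of 1697 anther-enriched genes, chosen in the same way for the anther alone, held 2.25% against 0.359% and 0.549%. Without gene names the labelled organs could not be checked against defining marker genes. Sepal responses called against control are given with and without that library.

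Of summed FPKM, the 10 genes together made up 0.365% ± 0.0465 (SD, n = 3) in control sepals, 0.290% ± 0.0181 in control stigmas, 0.231% ± 0.0216 in control ovaries and 0.0206% ± 0.00485 in control anthers. Nearly all of it came from 4 genes, the chromosome 7 pair, GLYMA_13G347700 and GLYMA_08G189300, and each had its own distribution over the organs. Copies in tandem may share reads, so the level of a single copy is uncertain to the extent that the authors' counting split reads between near-identical sequences.

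**Figure D1:**
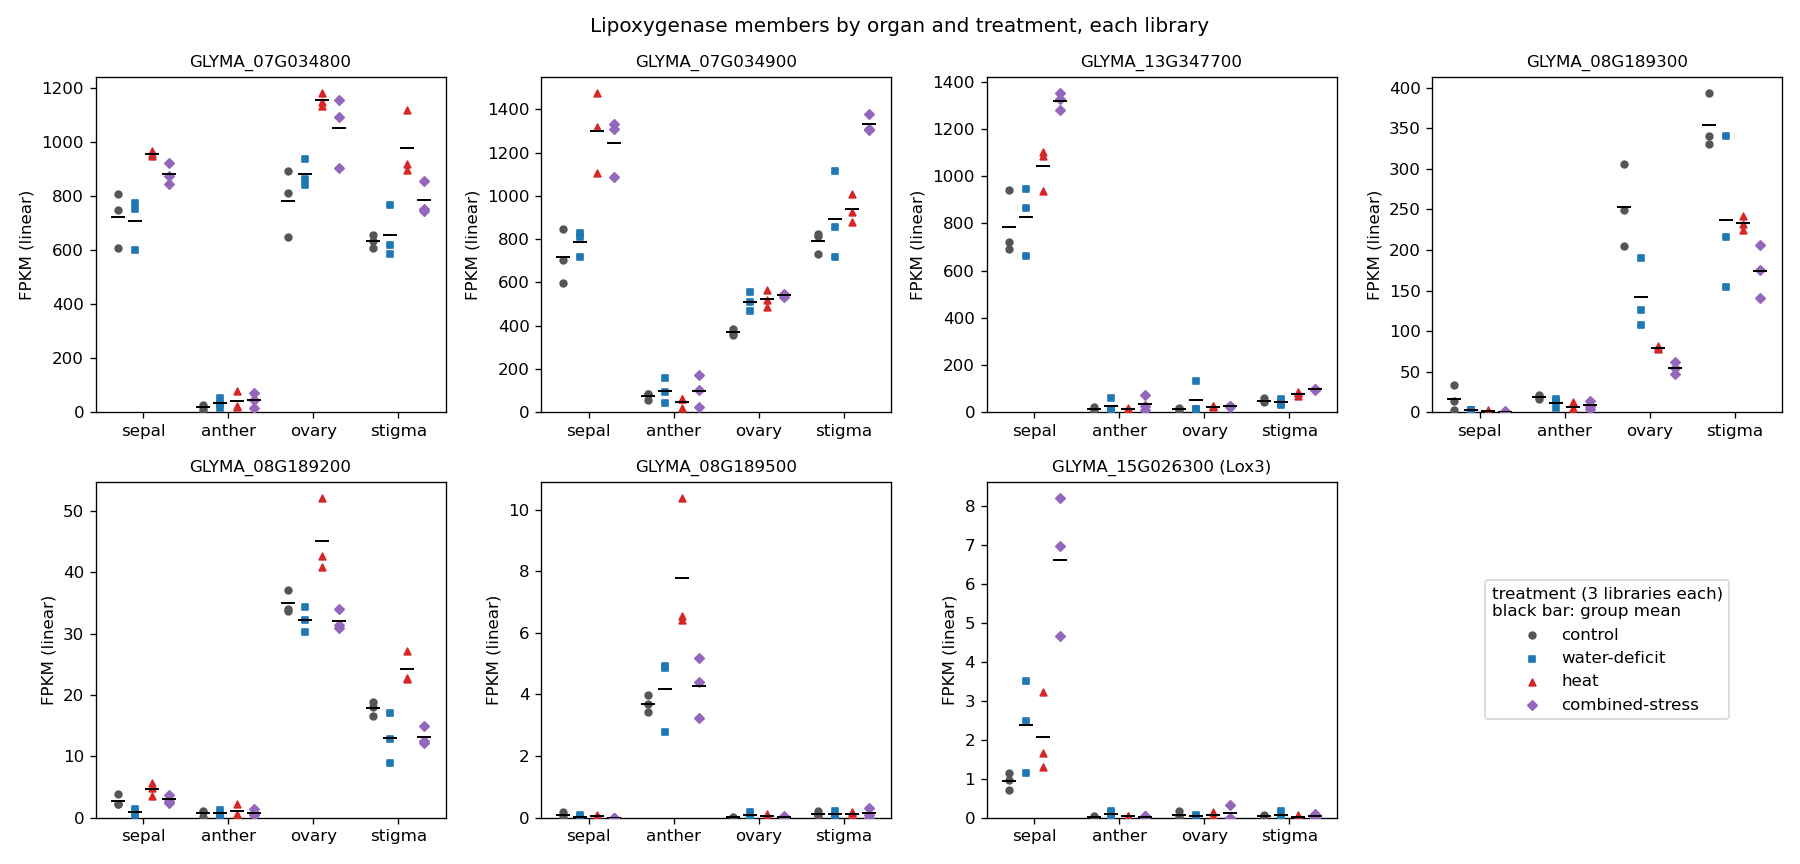
FPKM (linear axis, from 0) of the 7 members that reached 1 FPKM in a library mean of at least 1 group, in every library of the 4 organs, with points for the 3 libraries of each treatment and black bars for group means. The chromosome 7 pair is high in sepal, ovary and stigma, GLYMA_13G347700 in the sepal, GLYMA_08G189300 and GLYMA_08G189200 in ovary and stigma, GLYMA_08G189500 in the anther, and Lox3 is above 0.4 FPKM in the sepal alone.

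The seed genes Lox1 and Lox2 were close to 0 in the flower, although the flower bears the ovules. Lox1 did not exceed 0.290 FPKM in any of the 48 libraries and was listed at 0 in 21 of them, while Lox2 did not exceed 0.192 FPKM and was listed at 0 in 16. Most of the little Lox1 signal was in the anther, at 0.153 FPKM over its 12 libraries, and in the ovary, at 0.0820 FPKM, and it was listed at 0 in 10 of 12 stigma libraries and 9 of 12 sepal libraries. Lox2 differed in this, with its highest organ mean in the stigma at 0.0820 FPKM. Neither passed the filter for testing, a mean of at least 1 FPKM in at least 1 group of the organ, and neither did GLYMA_08G189400, which did not exceed 0.241 FPKM and was listed at 0 in all 12 anther libraries.

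Lox3 differed from the other seed genes by its level in the sepal. Its control sepals stood at 0.958, 1.14 and 0.695 FPKM, water-deficit sepals at 1.15, 3.50 and 2.48, heated sepals at 1.66, 1.31 and 3.22, and combined-stress sepals at 6.98, 4.67 and 8.21 FPKM. All 3 combined-stress libraries lay above all other sepal libraries, and all 3 control libraries lay below all stressed ones. Combined stress raised Lox3 7.11-fold over the control mean (log2 fold change 1.96 on the log2(FPKM + 1) scale, SE 0.29, limma adjusted p = 0.000685). The rise remained without control sepal replicate 3 (log2 fold change 1.87, limma adjusted p = 0.00349). The control mean of 0.931 FPKM was under the filter, so Lox3 was tested through its stressed groups.

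Either stress alone left Lox3 short of the threshold, with log2 fold changes of 0.75 (limma adjusted p = 0.310) under water deficit and 0.62 (limma adjusted p = 0.190) under heat, or 0.66 and 0.53 without control sepal replicate 3 (adjusted p = 0.489 and 0.361). Combined stress also exceeded heat (limma log2 fold change 1.33, SE 0.29, adjusted p = 0.0289) and water deficit (1.21, SE 0.29, limma adjusted p = 0.0164), in each case with every combined-stress library above every library of the other group. Neither call held through every removal of 1 library. The log2 fold changes then ran from 1.16 to 1.59 against heat and from 0.92 to 1.45 against water deficit. The call against heat was lost without heat replicate 1 or 2 or combined-stress replicate 1 or 3 (adjusted p 0.0926 to 0.112). That against water deficit was lost without water-deficit replicate 1 or combined-stress replicate 1 or 3 (adjusted p 0.0520 to 0.0629).

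In the anther, ovary and stigma Lox3 did not exceed 0.316 FPKM in any of 36 libraries. The combined-stress response minus that in the sepal was -1.95 for the anther, -1.92 for the ovary and -1.94 for the stigma. With Lox3 near 0 in those organs and in the fit through its sepal values alone, these differences restate the sepal rise and do not test a response elsewhere.

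GLYMA_13G347700, the neighbour of Lox1, behaved unlike the seed genes beside it. It ranked 37 among all genes in control sepals, at 691, 943 and 720.1 FPKM. In the other organs its control means were 50.4 ± 9.79 FPKM in the stigma, 15.0 ± 3.09 in the ovary and 14.3 ± 8.51 in the anther (SD, n = 3). Every sepal library lay above every library of the other organs.

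Combined stress raised GLYMA_13G347700 in sepal and stigma. Combined-stress sepals stood at 1352, 1279 and 1327 FPKM, all above the controls (1.68-fold, limma log2 fold change 0.76, SE 0.15, adjusted p = 0.00305, and 0.71 with adjusted p = 0.0105 without control sepal replicate 3). Water-deficit sepals stood at 663, 946 and 866 FPKM, within the spread of the controls, and combined stress exceeded them by a log2 fold change of 0.69 (SE 0.15, limma adjusted p = 0.00833). Heated sepals, at 939, 1087 and 1101 FPKM, overlapped the controls and missed the threshold (log2 fold change 0.42, limma adjusted p = 0.0851). After rescaling of libraries by median of ratios the heated sepals passed it (0.50, adjusted p = 0.0487, against a range of 0.0416 to 0.213 over the 12 alternatives tried).

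In the stigma, control libraries of GLYMA_13G347700 stood at 61.3, 42.3 and 47.6 FPKM, heated ones at 88.4, 81.8 and 68.9, and combined-stress ones at 100.4, 94.0 and 98.2. Both heated groups lay wholly above the controls. The rise was 1.94-fold under combined stress (limma log2 fold change 0.96, SE 0.19, adjusted p = 0.00430) and 1.58-fold under heat (0.66, SE 0.19, limma adjusted p = 0.0419). The heat call was lost without control replicate 2 or 3 or any heat replicate (adjusted p 0.0549 to 0.134). Combined stress exceeded water deficit, at 31.2, 57.4 and 40.2 FPKM, by 2.27-fold (limma log2 fold change 1.21, SE 0.19, adjusted p = 0.00241). The combined-stress response in the stigma minus that in the sepal was 0.19 (95% interval -0.34 to 0.72, limma adjusted p = 0.708), and 0.25 without control sepal replicate 3 (adjusted p = 0.630). A list of 739 sepal-enriched genes was defined from control libraries with the lipoxygenases left out. Its share of FPKM is therefore low in control stigmas by choice. It held 0.260% to 0.270% there, 0.285% to 0.327% under water deficit, 0.310% to 0.369% under heat and 0.345% to 0.365% under combined stress. Every stressed group lay above the controls in this share, and the part of sepal tissue in the rise of the single gene was not tested.

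Single libraries dominated this gene in the ovary and anther. Water-deficit ovary replicate 1 reached 131 FPKM against 14.7 and 13.6 in its group, and water-deficit and combined-stress anther replicate 1 reached 62.9 and 73.9 FPKM against 10.1 to 28.1 in the other libraries of those groups. The 739 sepal-enriched genes held 0.296% of FPKM in that ovary library against 0.239% and 0.276% in the others of its group. In the anther the list held 0.193% and 0.259% in the high libraries, the highest share of each group, against 0.0583% and 0.170% and against 0.146% and 0.232% in the others. The part of sepal tissue in these values was not tested. Heated and combined-stress ovaries, at 21.1 to 28.7 FPKM, all lay above the controls at 11.5 to 17.4 FPKM, and neither comparison passed the threshold (log2 fold changes 0.68 and 0.73, SE 0.73, limma adjusted p = 0.575 and 0.496). The SE is shared by the 4 ovary groups and so includes the spread of the water-deficit group. With the 2 groups compared fitted alone, both passed (adjusted p = 0.0259 and 0.0207), and the other alternatives gave adjusted p up to 0.759 and 0.687. Without water-deficit ovary replicate 1, combined stress exceeded water deficit in the ovary (0.80, adjusted p = 0.0121).

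The vegetative pair on chromosome 7 was among the most abundant transcripts of the flower outside the anther. In control libraries GLYMA_07G034800 ranked 27 among all genes in the ovary, 38 in the stigma and 45 in the sepal, with means of 783 ± 125, 633 ± 23.7 and 721 ± 103 FPKM (SD, n = 3). GLYMA_07G034900 ranked 27 in the stigma at 789.9 ± 50.8 FPKM, 46 in the sepal at 717 ± 126 FPKM and 115 in the ovary at 371 ± 12.4 FPKM. Anthers had far less, 19.2 ± 7.93 FPKM of the first and 76.8 ± 16.4 of the second. In the deposited values all anther libraries lay below all libraries of the other organs for both genes. Anther levels depend on scaling, and this order of single libraries was not checked after rescaling.

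The balance of the pair differed between organs. The ratio of GLYMA_07G034900 to GLYMA_07G034800 in control libraries was 0.430 to 0.569 in the ovary, 0.872 to 1.13 in the sepal, 1.16 to 1.35 in the stigma and 3.28 to 5.38 in the anther. These ranges did not overlap. In the stigma the ratio was 0.786 to 1.12 under heat and 1.52 to 1.84 under combined stress, so the control range lay between those of the heated groups. The ratios were not tested.

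**Figure D2:**
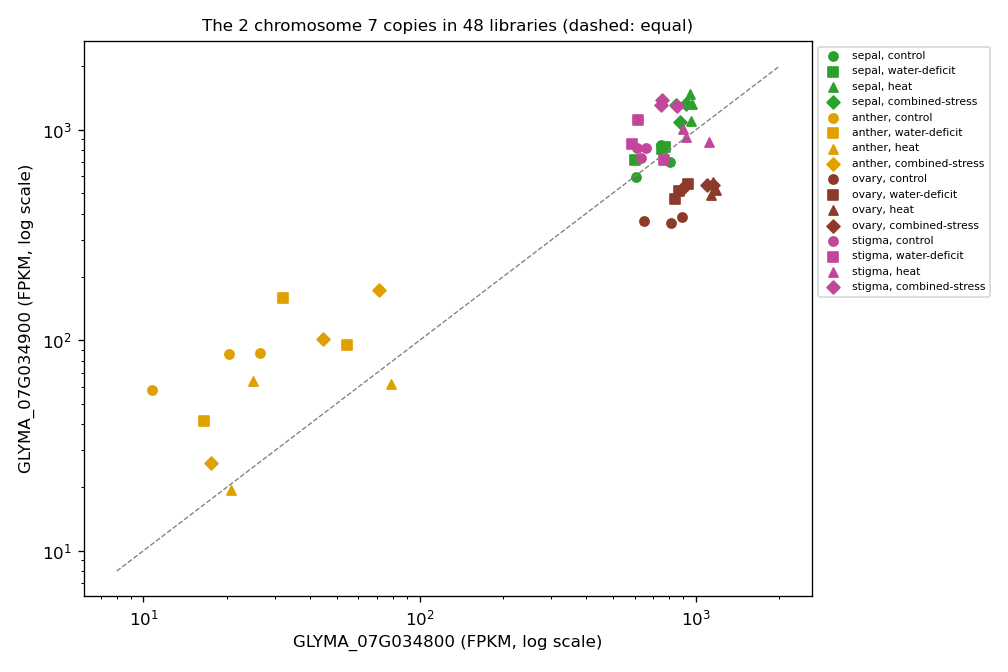
FPKM of GLYMA_07G034900 against GLYMA_07G034800 (both axes log scale) in all 48 libraries, with colours for organs, symbols for treatments and a dashed line of equal values. Ovary libraries lie below the line, at ratios of 0.430 to 0.591, and anther libraries at low values of both genes.

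Heat raised GLYMA_07G034800 in ovary and stigma. Control ovaries stood at 647, 892 and 810.4 FPKM and heated ovaries at 1132, 1149.6 and 1182, a 1.47-fold rise (limma log2 fold change 0.57, SE 0.12, adjusted p = 0.00768). Control stigmas stood at 657, 633 and 609.9 FPKM and heated stigmas at 1118, 896 and 917, a 1.54-fold rise (limma log2 fold change 0.62, SE 0.12, adjusted p = 0.00781). The heated libraries lay above all controls in both organs. In the sepal, heated libraries at 956, 968 and 948 FPKM also lay above controls at 748, 808 and 608 (1.33-fold, limma log2 fold change 0.42, SE 0.12, adjusted p = 0.0448). That call was lost without control replicate 1 or 3 or any heat replicate (adjusted p 0.0544 to 0.112). Without control sepal replicate 3 the log2 fold change was 0.30 (adjusted p = 0.109).

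Under combined stress GLYMA_07G034800 passed the threshold in the ovary, at 1157, 1092 and 904 FPKM (1.34-fold, limma log2 fold change 0.43, SE 0.12, adjusted p = 0.0196), and this call was lost without control replicate 1 or combined-stress replicate 1 or 2 and with the 2 groups fitted alone (adjusted p 0.0619 to 0.0751). Combined-stress sepals, at 923, 874 and 845 FPKM, and stigmas, at 854, 751 and 746 FPKM, lay above their controls without passing it (log2 fold changes 0.30 and 0.31, limma adjusted p = 0.0942 and 0.0840). After median-of-ratios rescaling the sepal difference passed (0.42, adjusted p = 0.0331), the lowest of the alternatives, which reached 0.264. Water-deficit libraries of this gene overlapped the controls in all 4 organs.

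GLYMA_07G034900 rose under combined stress in sepal, ovary and stigma. Control stigmas stood at 815, 732 and 823 FPKM and combined-stress stigmas at 1302, 1380.0 and 1310.0 (1.68-fold, limma log2 fold change 0.75, SE 0.14, adjusted p = 0.00225). Control sepals stood at 848, 705 and 597 FPKM and combined-stress sepals at 1331, 1089 and 1308 (1.73-fold, limma log2 fold change 0.80, SE 0.14, adjusted p = 0.00217). Without control sepal replicate 3 this was 0.68 (adjusted p = 0.00654). Control ovaries stood at 368, 384 and 359 FPKM and combined-stress ovaries at 545, 547 and 533 (1.46-fold, limma log2 fold change 0.55, SE 0.08, adjusted p = 0.000524). In each organ every stressed library was above every control.

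The responses of GLYMA_07G034900 to heat alone ranged more widely over the organs. Heated sepals stood at 1107, 1320.0 and 1476 FPKM, a 1.82-fold rise (limma log2 fold change 0.86, SE 0.14, adjusted p = 0.00371, and 0.74 with adjusted p = 0.00999 without control sepal replicate 3). Heated ovaries stood at 488, 564 and 517 FPKM, a 1.41-fold rise (limma log2 fold change 0.49, SE 0.08, adjusted p = 0.00210). Heated stigmas, at 879, 1007 and 927 FPKM, were above the controls without passing the threshold (log2 fold change 0.25, limma adjusted p = 0.242). Heated anthers had a mean of 48.4 ± 25.2 FPKM against 76.8 ± 16.4 in controls and overlapped them. That log2 fold change of -0.81 did not pass the threshold either. The heat response in the stigma minus that in the sepal was -0.62 (95% interval -1.04 to -0.19, limma adjusted p = 0.0967), which missed the threshold. It passed without control sepal replicate 1 (-0.75, adjusted p = 0.0405) and was -0.49 without control sepal replicate 3 (adjusted p = 0.187).

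Combined stress exceeded water deficit for GLYMA_07G034900 in the sepal (limma log2 fold change 0.66, SE 0.14, adjusted p = 0.0104) and the stigma (0.59, SE 0.14, limma adjusted p = 0.0123). In the ovary, water deficit alone gave 554, 467 and 509.8 FPKM, all above the controls (1.38-fold, limma log2 fold change 0.46, SE 0.08, adjusted p = 0.0469). It was the only member called under water deficit in any organ, and the call was lost with any of the 6 libraries left out (adjusted p 0.0758 to 0.205).

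In the anther no response of the chromosome 7 pair passed the threshold with all libraries, and the libraries varied widely. Combined-stress anthers stood at 71.5, 17.6 and 44.6 FPKM for GLYMA_07G034800 against 10.8, 26.5 and 20.3 in controls (log2 fold change 1.05, 95% interval -0.35 to 2.46, limma adjusted p = 0.170). For GLYMA_07G034900 they stood at 174, 26.1 and 102 FPKM against 57.9, 86.8 and 85.7 (log2 fold change 0.04, 95% interval -1.54 to 1.62, limma adjusted p = 0.969). Both intervals hold rises of the size called in other organs. Anther values also depend on scaling, since the anther genes tested had a median combined-stress log2 fold change of 0.61 in the deposited values and of 0.04 once libraries were rescaled by median of ratios. Rescaling turned the value of GLYMA_07G034900 to -0.73 and lowered that of GLYMA_07G034800 to 0.30. Without combined-stress anther replicate 2, GLYMA_07G034800 passed (1.59, adjusted p = 0.0484, the lowest of its alternatives, which reached 0.687).

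**Figure D3:**
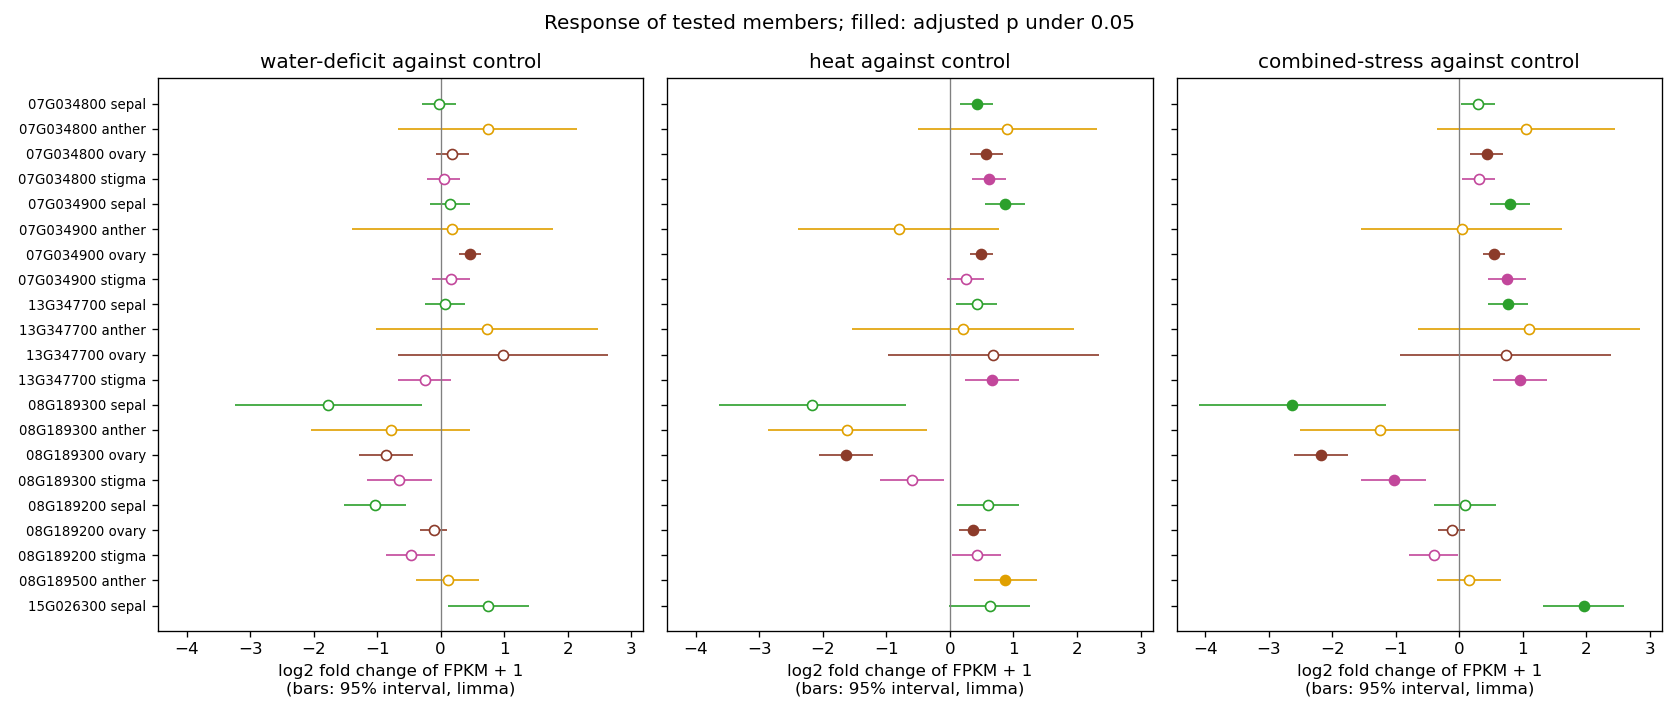
Log2 fold change of FPKM + 1 against control under water deficit, heat and combined stress for every member tested in an organ, with 95% intervals from limma. Filled points passed an adjusted p of 0.05, and GLYMA_08G189300 is to the left of 0 in every panel and organ, with 3 of its 4 combined-stress values filled.

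GLYMA_08G189300, the most abundant copy of the chromosome 8 cluster, moved in the opposite direction. It was a pistil transcript, at 340.1, 330.2 and 393 FPKM in control stigmas and 249, 204 and 306 in control ovaries. Under combined stress the ovaries stood at 47.6, 54.5 and 62.4 FPKM, a fall to 0.216 of the control mean (limma log2 fold change -2.18, SE 0.19, adjusted p = 2.38e-05). Heated ovaries stood at 78.4, 82.3 and 78.9 FPKM, 0.315 of the control mean (limma log2 fold change -1.63, SE 0.19, adjusted p = 0.000403). Control, heated and combined-stress ovaries did not overlap. In bulk samples, fewer cells of a type and less RNA per cell cannot be told apart.

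Water-deficit ovaries of GLYMA_08G189300, at 191, 108 and 126 FPKM, also lay below all controls without passing the threshold (limma log2 fold change -0.86, SE 0.19, adjusted p = 0.146). Without water-deficit ovary replicate 1 it passed (-1.09, adjusted p = 0.0354, against up to 0.471 over the 12 alternatives). Combined stress was below water deficit by -1.32 (SE 0.19, limma adjusted p = 0.000933) and below heat by -0.54 (SE 0.19, limma adjusted p = 0.242).

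In the stigma GLYMA_08G189300 fell under combined stress to 176, 141 and 206 FPKM, 0.491 of the control mean (limma log2 fold change -1.03, SE 0.23, adjusted p = 0.00811). Heated stigmas, at 242, 225 and 232 FPKM, were below all controls without passing the threshold (-0.60, limma adjusted p = 0.107), and water-deficit stigmas, at 341, 155 and 216 FPKM, overlapped them. The 277 pistil-enriched genes, defined on the control libraries and therefore high in them by choice, held 3.99% to 4.40% of FPKM in control ovaries and 3.01% to 3.29% under combined stress, and 3.51% to 3.79% in control stigmas and 2.28% to 2.83% under combined stress. The part of pistil tissue content in the fall of the single gene was not tested.

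In the sepal GLYMA_08G189300 was called lower under combined stress, at 0.689, 0.911 and 1.44 FPKM against 2.62, 13.8 and 33.7 in controls (limma log2 fold change -2.63, SE 0.66, adjusted p = 0.0179). The order of the controls was that of their share of pistil-enriched genes, 0.0993%, 0.264% and 0.485%, against 0.0923% to 0.120% in combined-stress sepals. The share of anther-enriched genes had the same order, 0.359%, 0.549% and 2.25%, against 0.323% to 0.355% in combined-stress sepals. The part of pistil or anther material in this call was not tested. Without control sepal replicate 3 the log2 fold change was -1.88 (adjusted p = 0.0266). The call was lost without control replicate 2 or combined-stress replicate 1 or 2 (adjusted p 0.0552 to 0.0590) and with the 2 groups fitted alone (0.1005). With control replicate 1 left out, heat (-3.05, adjusted p = 0.00110) and water deficit (-2.65, adjusted p = 0.0139) passed as well, while the other alternatives gave adjusted p up to 0.217 and 0.567.

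In the anther the same gene stood at 22.1, 19.6 and 16.6 FPKM in controls, 5.37, 12.7 and 2.31 under heat and 14.7, 7.50 and 3.64 under combined stress. All stressed libraries were below all controls, and neither comparison passed the threshold (log2 fold changes -1.62 and -1.25, limma adjusted p = 0.0711 and 0.0758). After median-of-ratios rescaling the combined-stress value was -1.95 (adjusted p = 0.0298), and adjusted p ranged up to 0.259 over the alternatives, 3 of which passed. Without heat replicate 2 the heat value passed too (-2.14, adjusted p = 0.0202).

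**Figure D4:**
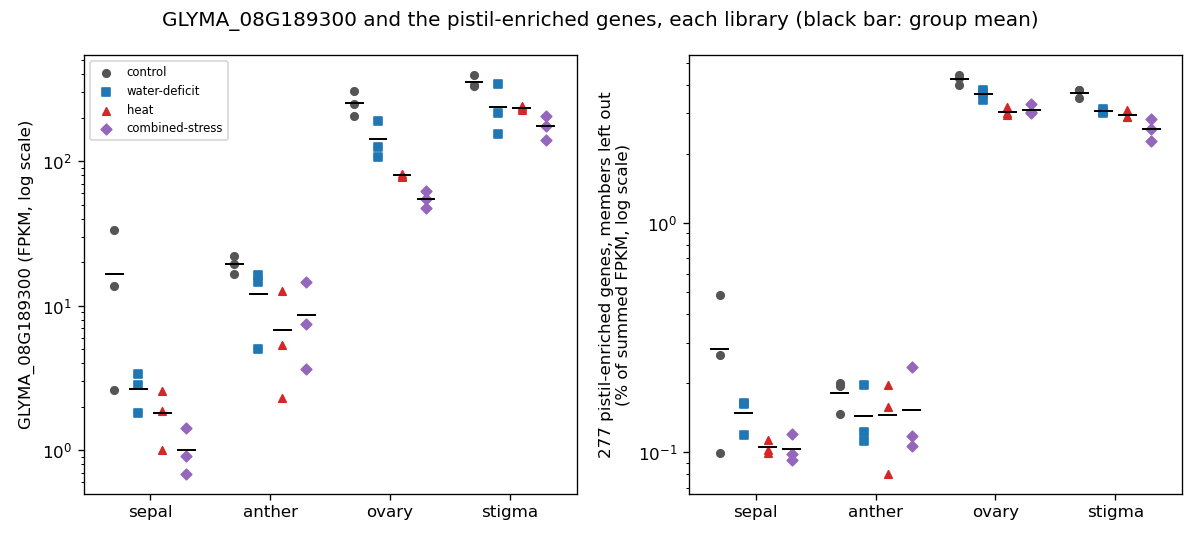
GLYMA_08G189300 in FPKM (left, log axis) and the share of summed FPKM held by 277 pistil-enriched genes (right, log axis) in every library, with points for the 3 libraries of each treatment and black bars for group means. In control sepals both rise together from 2.62 to 33.7 FPKM and from 0.0993% to 0.485%, and in the ovary the gene under combined stress is at 0.216 of its control mean.

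GLYMA_08G189200, which lies next to GLYMA_08G189300 by identifier, was also highest in ovary and stigma, at lower levels, and moved the other way under heat in the ovary. Control ovaries stood at 34.1, 37.1 and 33.6 FPKM and heated ovaries at 52.1, 40.8 and 42.6, all above the controls (1.29-fold, limma log2 fold change 0.35, SE 0.10, adjusted p = 0.0295). The 95% interval of this change, 0.14 to 0.57, lay above 0, and that of GLYMA_08G189300 in the same libraries, -2.06 to -1.21, lay below it. The difference between the genes was not tested. The call of GLYMA_08G189200 was lost without control replicate 1 or 3 or heat replicate 1 (adjusted p 0.0862 to 0.0996), with the 2 groups fitted alone (0.0717) and under the replicate block (0.0539). Combined-stress ovaries, at 30.9, 31.4 and 34 FPKM, overlapped the controls (log2 fold change -0.12, 95% interval -0.34 to 0.10, limma adjusted p = 0.400).

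The heated group had the highest mean in the stigma and sepal as well. Stigmas stood at 18.0, 16.5 and 18.9 FPKM in controls, 22.6, 27.2 and 22.8 under heat, and 12.2, 12.5 and 15.0 under combined stress. As for GLYMA_08G189300, the combined-stress stigmas lay below all controls (log2 fold change -0.41, limma adjusted p = 0.113). Combined stress was below heat there (0.547 of the heat mean, limma log2 fold change -0.82, SE 0.18, adjusted p = 0.0496), a call lost with any of the 6 libraries left out (adjusted p 0.0770 to 0.158). Sepals stood at 2.24, 2.23 and 3.80 FPKM in controls, 0.681, 1.33 and 0.488 under water deficit, 5.59, 3.54 and 4.88 under heat and 3.72, 2.44 and 2.78 under combined stress. Combined-stress sepals exceeded water-deficit sepals 3.57-fold (limma log2 fold change 1.13, SE 0.22, adjusted p = 0.00608), while water deficit against control missed the threshold (-1.03, limma adjusted p = 0.0823, and -0.84 with adjusted p = 0.179 without control sepal replicate 3).

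GLYMA_08G189500 was found in the anther. Its 12 anther libraries ranged from 2.77 to 10.4 FPKM, and none of the 36 other libraries exceeded 0.307 FPKM. Heated anthers, at 6.55, 6.41 and 10.4 FPKM, lay above controls at 3.68, 3.99 and 3.44 (2.10-fold, limma log2 fold change 0.87, SE 0.23, adjusted p = 0.0230). Combined-stress anthers, at 3.24, 5.18 and 4.39 FPKM, overlapped the controls (log2 fold change 0.15, limma adjusted p = 0.585) and lay below the heated ones (-0.72, SE 0.23, limma adjusted p = 0.0323). The heat call was lost without any 1 of the control replicates or heat replicate 3 (adjusted p 0.0540 to 0.0852) and after median-of-ratios rescaling (log2 fold change 0.63, adjusted p = 0.146). The difference between combined stress and heat was lost without heat replicate 3 or combined-stress replicate 1 or 3 (adjusted p 0.0771 to 0.119) and was -1.09 after rescaling (adjusted p = 0.0227).

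Counted over the members, heat and combined stress gave most calls outside the anther. In the sepal 6 of the 10 were tested. Under heat 2 rose and 0 fell there (4.11% of all tested genes were called higher and 7.19% lower). Those 2 were the chromosome 7 pair, whose copies may share reads. Under combined stress 3 rose and 1 fell in the sepal (7.19% higher and 16.9% lower). Lox3, 1 of those 3, was tested through its stressed groups. In the ovary, with 5 tested, 3 rose and 1 fell under heat (5.99% higher and 10.8% lower), and 2 rose and 1 fell under combined stress (11.0% higher and 16.5% lower). The chromosome 7 pair was among those 3 and made up those 2. In the stigma, with 5 tested, 2 rose and 0 fell under heat (6.77% higher and 7.16% lower), and 2 rose and 1 fell under combined stress (11.1% higher and 14.9% lower). Under combined stress the tested members had a median log2 fold change of 0.53 in the sepal, beside -0.10 for all tested genes. It was 0.43 in the ovary beside -0.02, 0.31 in the stigma beside -0.01, and 0.15 in the anther beside 0.61. The anther value of all tested genes depends on scaling and was 0.04 after median-of-ratios rescaling. Each median of the members is taken over a few chosen genes, some of which rose while others fell.

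In the anther, with 5 members tested, limma called 1 member under heat (18.5% of all tested genes) and 0 under combined stress (62.4%), where 0 members had an unadjusted p under 0.05. Water deficit gave 0 calls among the members in the sepal (0.208% of all tested genes), anther (0.00351%) and stigma (0.164%) and 1 in the ovary (0.234%), and limma's unadjusted p was under 0.05 for 3, 0, 2 and 2 members in the sepal, anther, stigma and ovary. Comparisons of either stress with control share the same control libraries.

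Combined stress against heat gave 1 call each in sepal (3.35%), anther (33.8%) and stigma (1.13%) and 0 in the ovary (0.789%). In the sepal, anther, stigma and ovary limma's unadjusted p was under 0.05 for 3, 1, 3 and 2 members. Combined stress against water deficit gave 4 calls in sepal (15.2%), 2 in stigma (16.7%), 1 in ovary (21.3%) and 0 in anther (61.0%), with 5, 2, 1 and 0 members at an unadjusted p under 0.05 in limma. Among the members, those called against water deficit were GLYMA_13G347700, Lox3, GLYMA_07G034900 and GLYMA_08G189200 in the sepal, GLYMA_08G189300 in the ovary, and GLYMA_13G347700 and GLYMA_07G034900 in the stigma. Without water-deficit stigma replicate 2, GLYMA_07G034800 (0.38, adjusted p = 0.0456) and GLYMA_08G189300 (-0.65, adjusted p = 0.0443) were called there as well.

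Summed over the copies, the vegetative genes of chromosome 7 stood at 1438 ± 206 FPKM in control sepals (1596, 1513 and 1205) and 2123 ± 148 under combined stress (SD, n = 3). The way shared reads were counted can still alter such a sum, as FPKM is scaled to the length of each copy. Control ovaries held 1154 ± 131 and combined-stress ovaries 1593 ± 138 FPKM, and control stigmas 1423 ± 54.8 and combined-stress stigmas 2115 ± 52.4 FPKM. In these 3 organs the combined-stress libraries lay above all controls. The sum of the chromosome 8 cluster moved the other way, from 288 ± 49.4 to 87.0 ± 9.00 FPKM in the ovary. In the stigma it went from 373 ± 35.1 to 188 ± 34.3, and neither organ overlapped its controls. Most of that sum was GLYMA_08G189300, with means of 253 and 54.8 FPKM in control and combined-stress ovaries and 355 and 174 in stigmas. GLYMA_08G189200 overlapped its controls in the ovary (means of 34.9 and 32.1 FPKM) and lay below them in the stigma (17.8 and 13.2). These sums were not tested.

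The direct tests of organ differences called few members. For the response to combined stress minus that of the sepal, Lox3 was the 1 member called in the anther (48.6% of all tested genes), the ovary (8.10%) and the stigma (7.80%). For heat, 1 member was called in the anther (14.4%), GLYMA_08G189500 (log2 difference 0.90, SE 0.24, limma adjusted p = 0.0212). That gene was close to 0 in the sepal, so the difference restates its rise in the anther. After median-of-ratios rescaling it missed the threshold (adjusted p = 0.306), and GLYMA_07G034900 was called in its place, in the other direction (-2.22, adjusted p = 0.0458, against -1.67 and 0.149 in the deposited values). None was called for heat in ovary (4.18%) or stigma (3.72%). For water deficit, 0 were called in the anther (0.0307%), ovary (0.107%) and stigma (0.0329%). At an unadjusted p under 0.05, limma had 1, 2 and 1 members for water deficit in these organs, and 1 and 2 for heat in the ovary and stigma. Without control sepal replicate 1, GLYMA_08G189300 was also called, for heat in the stigma (2.45, adjusted p = 0.00501) and for combined stress in the stigma (2.47, adjusted p = 0.00258) and anther (2.26, adjusted p = 0.0212). With all libraries these differences were 1.56, 1.59 and 1.38 (limma adjusted p = 0.265, 0.208 and 0.219). Without control sepal replicate 3 they were 0.82, 0.84 and 0.63 (limma adjusted p = 0.469, 0.403 and 0.550).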

How the data were processed

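Per the labels, RNA of 48 pooled flower-organ samples was sequenced in paired reads of 150 bases, and reads were aligned with HISAT2 2.2.1, per the submitters' processing notes. For the counting tool, build and annotation, nothing is given in the sources used here. The authors deposited FPKM per gene and library, in 1 table per organ, and some values are rounded to 3 digits in exponent form. No read counts were used, so depth is not known in absolute terms and counting intervals are left out. The 12 libraries of an organ were fitted together on log2(FPKM + 1) by limma 3.58.1 (R 4.3.3), with trend and robust moderation, for genes with a mean of at least 1 FPKM in at least 1 group. P-values are two-sided, adjusted by Benjamini-Hochberg over all genes tested, with a threshold of 0.05. Organ differences were fitted on 24 libraries. Fold values are ratios of mean FPKM. The fit was run on simulated data, drawn as independent normal values without an overall shift between groups. That simulation does not cover a shift such as that of the anther. Figures used matplotlib 3.10.9.

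The members and gene lists were chosen with earlier results of these data known, and all 10 members are named. Pathway genes and organ markers were to be taken from the RefSeq gene table (assembly Glycine_max_v4.0), where 0 of 57147 identifiers matched, so these lists were not built and no sequences are shown. Enriched genes had a control mean of at least 5 FPKM and 8-fold over the other organs. Alternatives were a pseudocount of 0.1, no filter, median-of-ratios rescaling, limma without trend or robust moderation, the replicate block, the 2 compared groups alone and each library left out.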

Additional observations from a re-analysis of the deposited data

Results flagged for a closer look

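A total of 4 differences between the response of the sepal and that of another organ passed the threshold, each for a gene near 0 in 1 of the organs compared, so that the difference restates the rise in the other organ. For Lox3 (GLYMA_15G026300) the response to combined stress minus that in the sepal was -1.95 in anthers, -1.92 in ovaries and -1.94 in stigmas on the log2 scale. Lox3 rose in the 3 combined-stress sepals and stood near 0 in the other organs. For GLYMA_08G189500 the response to heat in the anther minus that in the sepal was 0.90, with a sepal level of at most 0.169 FPKM, and this call was lost without heat anther replicate 3 (adjusted p = 0.0612), after median-of-ratios rescaling (adjusted p = 0.306) and with a pseudocount of 0.1 FPKM.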

How the results depend on the processing

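Of 34 responses called for single genes, 22 passed the threshold in every alternative, 12 lost it in at least 1 and 0 changed sign. The 34 include the flagged organ differences. Those of Lox3, which restate its sepal rise, are among the 22 and are not separate responses. Counts of members called moved as follows, with the main count in brackets. Heat against control in the sepal [2] gave 1 without a filter, without trend or robust moderation, under the replicate block and with the 2 compared groups alone. The same settings gave 1, 1, 1 and 4 for heat in the stigma [2], and 0, 0, 0 and 2 for combined stress against heat there [1]. For combined stress against heat, the sepal [1] and the anther [1] gave 0 without a filter and 0 with the 2 groups alone, and the ovary [0] gave 1 with a pseudocount of 0.1. Water deficit in the ovary [1] gave 0 under the 4 settings named for heat and 0 with a pseudocount of 0.1. Anther heat [1] gave 0 after rescaling, and anther combined stress [0] gave 1 without a filter (Lox2, higher), 1 after rescaling and 1 with the 2 groups alone (GLYMA_08G189300, lower, in both). Combined stress against water deficit in the anther [0] gave 1 without a filter, and the anther minus sepal heat response [1] gave 0 with a pseudocount of 0.1. The cause was not tested. With single libraries left out, counts ranged in the sepal over 0 to 1 for water deficit, 1 to 3 for heat and 0 to 1 for combined stress against heat; in the anther over 0 to 2 for heat, 0 to 1 for combined stress and 0 to 1 for combined stress against heat; in the ovary over 0 to 1 for water deficit and 1 to 2 for combined stress against water deficit. In the stigma they ranged over 1 to 2 for heat and 2 to 4 for combined stress against water deficit, and were 0 in every case for combined stress against heat [1]. For organ differences they ranged over 0 to 1 (anther, heat), 1 to 2 (anther, combined stress), 0 to 2 (stigma, heat) and 1 to 2 (stigma, combined stress). After rescaling over 48 libraries, the vegetative members summed to 1263 FPKM in control sepals (1457 as deposited), 274 in anthers (119.8), 1113 in ovaries (1442) and 1478 in stigmas (1796), and the chromosome 13 and 15 members to 32.2 in anthers (14.5) and 11.7 in ovaries (15.2). Rescaling moved the share of higher calls among all called genes from 82.9% to 41.6% for combined stress in the anther, 78.6% to 51.8% for heat in the anther, 29.8% to 47.9% for combined stress in the sepal and 36.4% to 53.4% for heat in the sepal. Within an organ, the replicate numbers did not pair libraries of different treatments. Same-numbered libraries of an organ correlated at -0.256 to 0.276 in their deviations from group means. In sepal, anther, ovary and stigma, 1, 3, 2 and 1 of 12 libraries went best with their own number. Pairing between organs of the same treatment was not checked, and the main fits of organ differences took all libraries as independent. The block kept 25 of 29 counts within 1.5 times. Absolute depth is unknown, so values of Lox1, Lox2 and GLYMA_08G189400 near 0 are given without a counting error.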

Other observations

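Over the 16 group means of log2(FPKM + 1), the genes with a pattern most like that of GLYMA_13G347700, out of 28514 genes searched, were GLYMA_16G114900 (Pearson's r 0.991), GLYMA_17G180300 (0.988) and GLYMA_12G084900 (0.987). GLYMA_12G084900, at 25.9 FPKM in control sepals, stood at 3.36 in the stigma, 1.22 in the anther and 1.15 in the ovary. For GLYMA_07G034800 they were GLYMA_12G010900 (0.998), GLYMA_19G211700 (0.996) and GLYMA_15G255300 (0.995). GLYMA_19G211700 stood at 41.7 FPKM in control ovaries, 37.1 in stigmas, 34.7 in sepals and 0.507 in anthers. The points share libraries and organs, and the correlations are descriptions over organs and treatments.

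Among the members, GLYMA_07G034800 and GLYMA_07G034900 had an r of 0.93 over the same 16 means, Lox3 and GLYMA_13G347700 an r of 0.87, and GLYMA_08G189200 and GLYMA_08G189300 an r of 0.78. GLYMA_07G034800 and GLYMA_08G189200 had an r of 0.73. GLYMA_08G189500 had an r of -0.97 with GLYMA_07G034800 and of -0.94 with GLYMA_07G034900. The remaining pairs compared lay between -0.70 and 0.64.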
